A study of Mus musculus with 12 samples.

Results

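The genes described here are 32 mouse genes of fatty acid oxidation and ketone body use, chosen by name from 43346 genes in the deposited tables. They comprise 5 genes of the carnitine shuttle, 12 enzymes of mitochondrial beta oxidation, 3 genes of the electron transfer chain that serves the acyl-CoA dehydrogenases, 4 peroxisomal enzymes, 5 genes of fatty acid activation, thioester hydrolysis and regulation, and 3 ketone body enzymes. All 32 passed the filter on low counts and were among 22553 genes tested. They were measured by RNA-seq in 12 libraries from mouse brain sections that held hippocampus and cortex.

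The libraries fall into 3 groups of 4, and every one is labelled wild type. Old_CP2 mice were 23 months old and had taken CP2, a small-molecule inhibitor of mitochondrial complex I, at 25 mg per kg per day from 9 months of age, in water holding 0.1% PEG. Old mice were of the same age and took the same vehicle over the same period. Young mice were 3 months old and are labelled untreated. Old_CP2 and Old mice carry the strain label C57BL/6;SJL-Tg and Young mice carry C57BL/6, so that age, strain label and vehicle cannot be told apart in any comparison with Young. The design text of the series speaks of APP/PS1 mice, a transgenic amyloid model, whereas the titles of the libraries used here carry NTG and their genotype is given as wild type. No label ties a library to its own animal, and p-values measure the spread between these libraries.

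Fatty acids are first activated to acyl-CoA, carried into mitochondria as acyl-carnitines and shortened there in repeated rounds of dehydrogenation, hydration, a further dehydrogenation and thiolysis. The electrons enter the respiratory chain through electron transfer flavoprotein and its ubiquinone oxidoreductase, and as NADH through complex I, the target of CP2. Peroxisomes begin the breakdown of very long and branched chains. In the brain, astrocytes are known to carry out most fatty acid oxidation, while neurons burn ketone bodies made by the liver, through Bdh1, Oxct1 and Acat1.

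Libraries held between 70548781 and 99449665 counted reads. The labelled tissue was present in every library, with the summed level of 8 hippocampal and cortical markers between 419 and 499 CPM (reads scaled to library size) in Old_CP2, 361 and 475 CPM in Old, against 470 and 505 CPM in Young. Other structures differed between the sections. The sum of 9 choroid plexus markers was 22.4 to 826 CPM in Old_CP2, 26.4 to 963 CPM in Old and 1208 to 1945 CPM in Young, and 4 libraries (Old_CP2 11, Old_CP2 15, Old 7 and Old 9) were lowest in it. Striatal markers summed to 116 to 169 CPM in Old_CP2, 120 to 158 CPM in Old and 214 to 354 CPM in Young, and thalamic markers to 181 to 365, 230 to 357 and 403 to 729 CPM in the same order of groups. Markers of red blood cells summed to 228 to 443 CPM in Old_CP2, 81.6 to 148 CPM in Old and 59.2 to 91 CPM in Young. No marker in these lists was at 0 reads throughout.

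Per deposited gene length, the 5 highest of the 32 genes came from ketone use, fatty acid activation and the carnitine shuttle, and other genes of those groups lay far lower. On the deposited RPKM scale, which corrects for length, the mean over the 3 groups was 62.4 for Oxct1, the transferase that commits ketone bodies to oxidation, 36.0 for Acsl3 and 21.0 for Acsl6, both long-chain acyl-CoA synthetases, 23.1 for Cpt1c, the neuronal carnitine palmitoyltransferase of the endoplasmic reticulum, and 20.1 for Acat1, the thiolase that splits acetoacetyl-CoA. These were the 5 genes above 20 RPKM, and 13 lay above 10 RPKM. Within the same groups, Bdh1 stood at 9.6 RPKM, Acsl1 at 3.86 RPKM and Acot2 at 2.76 RPKM, and the mitochondrial beta oxidation enzymes ran from 13.6 RPKM for Acadvl to 2.59 RPKM for Acads. The lowest were Ehhadh, the peroxisomal bifunctional enzyme, at 0.967 RPKM and Ppara, the nuclear receptor that switches on fatty acid oxidation genes in the liver, at 0.648 RPKM. The highest gene stood 96.2 times above the lowest. This order rests on the deposited lengths, which equal the length of all GENCODE exons for 19 of the 32 genes. Cpt1c was deposited with 2793 bases against 5605 bases of exons, so that its place among the 5 highest is uncertain.

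**Figure D1:**
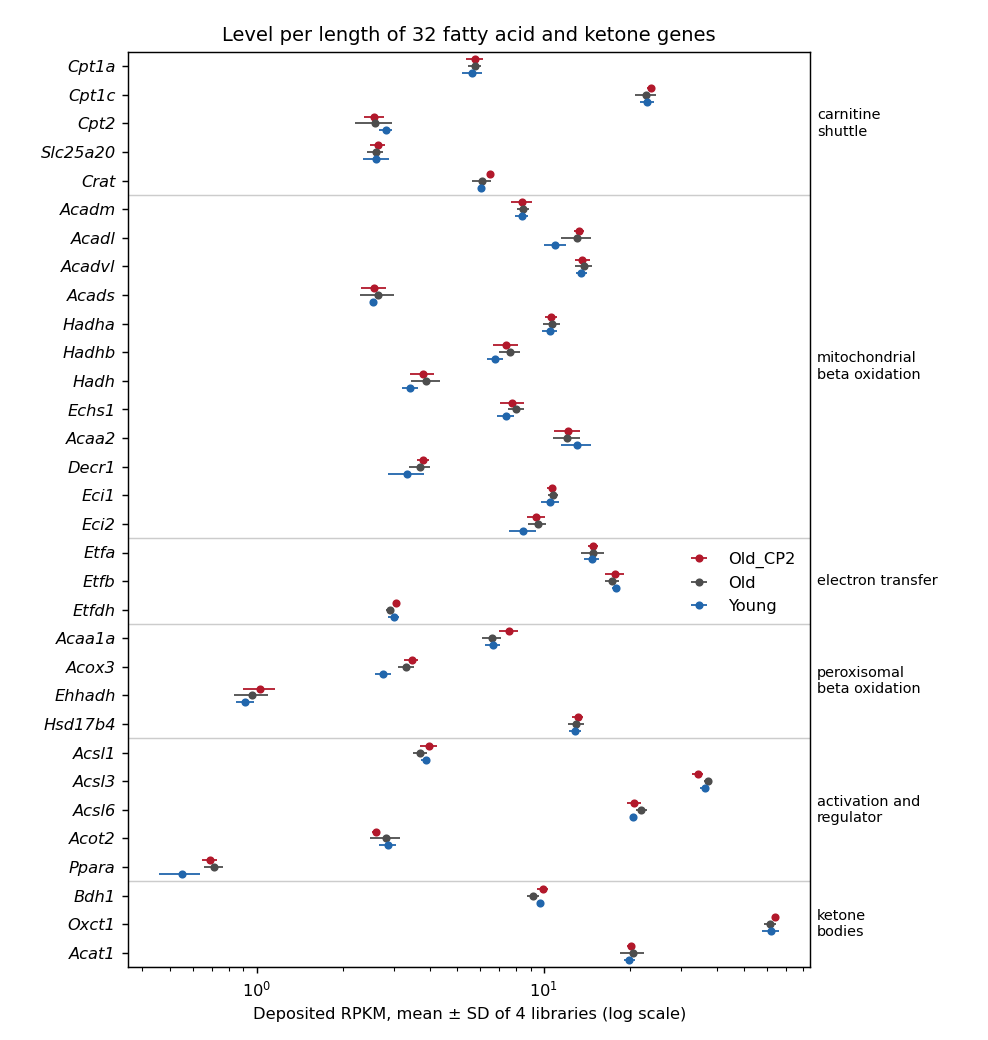
Deposited RPKM of the 32 genes on a log axis, as mean ± SD of 4 libraries in Old_CP2 (red), Old (grey) and Young (blue), grouped by role. Oxct1 at 62.4 RPKM and Ppara at 0.648 RPKM (means over the groups) mark the ends, and for most genes the 3 groups lie on top of each other.

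The isoforms of carnitine palmitoyltransferase and of acyl-CoA synthetase differed more from each other than between groups. The ratio of Cpt1c to Cpt1a, the rate-setting carnitine palmitoyltransferase of the mitochondrial outer membrane, was 4.11 ± 0.28 in Old_CP2, 3.94 ± 0.27 in Old and 4.10 ± 0.49 in Young (ratio of reads per length, SD, n = 4 each). Acsl3 exceeded Acsl1, the isoform that serves beta oxidation in heart and liver, 8.68 ± 0.34-fold in Old_CP2, 10.0 ± 0.47-fold in Old and 9.40 ± 0.25-fold in Young. That ratio ran from 8.41 to 9.16 in Old_CP2 and from 9.67 to 10.7 in Old, without overlap. Hadha and Hadhb encode the alpha and beta subunits of the trifunctional protein, which carries out the last steps of the cycle on long chains. The ratio of Hadha to Hadhb was 1.44 ± 0.08 in Old_CP2, 1.40 ± 0.02 in Old and 1.55 ± 0.04 in Young. It ran from 1.38 to 1.43 in Old and from 1.51 to 1.59 in Young. These ratios are given as descriptions, with no test. Their level rests on the deposited lengths, which for Hadha were 5341 bases against 8730 bases of GENCODE exons. Whether Hadha lies above or below Hadhb is therefore uncertain, whereas the comparison of a ratio between groups does not depend on length.

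Promoter sequence was available from RefSeq (GRCm38.p6) for 27 of the 32 genes, in 31 windows that run from 250 bases before to 50 bases after a transcription start. Decr1, Acat1, Acaa2, Crat and Hsd17b4 had no entry. The spaced direct repeat of AGGTCA, the DR1 form that PPAR and RXR pairs bind, was in 0 of the 31 windows on either strand and in 13 of all 32851 windows (0.04%). Its hexamer AGGTCA was in 6 of the 31 windows (19.4%), those of Acadm, Acadvl, Acsl6, Cpt1a, Cpt1c and Echs1, against 16.3% of all windows. The longer motif TNAAGGTCA, the form that oestrogen-related receptors bind and which contains the hexamer, was in the Acsl6 window and in 1.28% of all windows. The GC box GGGCGG was in 24 of the 31 windows (77.4%) against 35.7% of all, and the median GC content was 60.3% in the windows of the 32 genes against 52.7% in all. A match or its absence describes these letters and not the binding of a factor.

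The windows below belong to the genes that the comparisons turn on, and capitals mark the GC box on either strand, except in Acsl6, where they mark TNAAGGTCA. Acox3 lies at chr5:35582784-35583083 on the plus strand and holds 5 GC boxes, 2 of which overlap by 1 base. Acsl3 lies at chr1:78657575-78657874 on the plus strand and also holds 5. The Acsl6 window shown lies at chr11:54303574-54303873 on the plus strand, and its motif starts at position -167 from the start, on the opposite strand. Hadhb lies at chr5:30155003-30155302 on the plus strand. Hadha is read away from it from the minus strand, with 273 bases between the starts, and their windows share 228 bases.
Acox3: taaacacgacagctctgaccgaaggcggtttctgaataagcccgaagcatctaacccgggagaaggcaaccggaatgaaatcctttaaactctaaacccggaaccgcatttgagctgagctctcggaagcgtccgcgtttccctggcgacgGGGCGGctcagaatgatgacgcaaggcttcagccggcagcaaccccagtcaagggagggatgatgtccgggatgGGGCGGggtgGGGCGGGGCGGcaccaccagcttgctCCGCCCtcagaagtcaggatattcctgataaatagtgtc
Acsl3: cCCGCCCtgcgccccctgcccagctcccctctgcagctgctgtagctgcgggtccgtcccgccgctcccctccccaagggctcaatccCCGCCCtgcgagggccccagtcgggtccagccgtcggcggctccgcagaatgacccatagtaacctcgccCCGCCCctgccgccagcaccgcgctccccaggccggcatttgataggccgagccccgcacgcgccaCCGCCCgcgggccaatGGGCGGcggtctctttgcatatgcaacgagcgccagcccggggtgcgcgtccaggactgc
Acsl6: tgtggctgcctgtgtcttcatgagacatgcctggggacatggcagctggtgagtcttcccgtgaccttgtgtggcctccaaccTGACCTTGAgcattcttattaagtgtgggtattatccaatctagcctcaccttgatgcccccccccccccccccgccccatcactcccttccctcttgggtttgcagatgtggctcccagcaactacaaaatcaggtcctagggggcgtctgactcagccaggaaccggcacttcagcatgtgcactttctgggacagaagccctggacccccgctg
Hadhb: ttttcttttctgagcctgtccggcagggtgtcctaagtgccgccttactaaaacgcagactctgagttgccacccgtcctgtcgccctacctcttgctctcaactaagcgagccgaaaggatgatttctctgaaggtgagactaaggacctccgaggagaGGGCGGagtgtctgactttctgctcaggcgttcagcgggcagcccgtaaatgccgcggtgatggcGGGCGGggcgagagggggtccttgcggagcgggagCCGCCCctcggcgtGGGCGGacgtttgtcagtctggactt

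The first comparison, Old_CP2 against Old, asks what long treatment with a complex I inhibitor did to these transcripts. No gene of the 32 passed an adjusted p of 0.05 in edgeR's quasi-likelihood test over all tested genes, in which 10 genes (0.0443%) were called. At an unadjusted p under 0.05, 0 of the 32 were higher and 2 were lower, against 6.31% of all genes in either direction. limma voom also called 0, and DESeq2 called 1, Acsl3, among 108 genes in all. The estimates leaned to lower values, with 26 of the 32 below 0 (81.2%) against 49.4% of all tested genes, and the median log2 fold change was -0.07 against 0.002 over all genes. The shift was small, and every estimate lay between -0.18 and 0.13.

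Acsl3 and Acsl6, long-chain acyl-CoA synthetases, had the smallest p-values of the 32 in the treatment comparison. Acsl3, which activates long-chain fatty acids at the endoplasmic reticulum and lipid droplets, had 169, 188, 179 and 172 CPM in Old_CP2, against 189, 209, 200 and 202 CPM in Old. Every Old_CP2 library was below every Old library, although the nearest pair was almost equal. The log2 fold change was -0.18 ± 0.05 (SE, 95% interval -0.27 to -0.08), with adjusted p = 0.369 by edgeR. Over the alternative settings the adjusted p ran from 0.0497 with DESeq2 to 0.804. The Acsl3 window printed above holds none of the receptor motifs that were searched, which is common, as even the hexamer was in only 6 of the 31 windows.

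Acsl6, the synthetase that favours docosahexaenoic acid in neurons, had 226, 244, 243 and 254 CPM in Old_CP2, 255, 269, 266 and 276 CPM in Old, against 259, 250, 247 and 238 CPM in Young. The Old_CP2 and Old libraries again did not overlap, and the Old_CP2 range overlapped that of Young. The log2 fold change of Old_CP2 over Old was -0.14 ± 0.05, with adjusted p = 0.588. Acsl1, the third synthetase among the 32, averaged 44.3 ± 3.26 CPM in Old_CP2, against 43.3 ± 2.54 CPM in Old (SD, n = 4 each), a log2 fold change of 0.03.

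The third gene whose libraries did not overlap was Eci1, an isomerase that prepares unsaturated chains for the cycle. It had 13.3, 13.5, 13.8 and 14.2 CPM in Old_CP2, against 14.4, 14.4, 14.5 and 14.7 CPM in Old. The separation rests on a very small spread in Old, 0.154 CPM (SD), and the log2 fold change was -0.08 with adjusted p = 0.86. In all, 0 of the 32 lay wholly above Old and 3 wholly below it, against 3.44% of all genes that did not overlap in either direction.

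**Figure D2:**
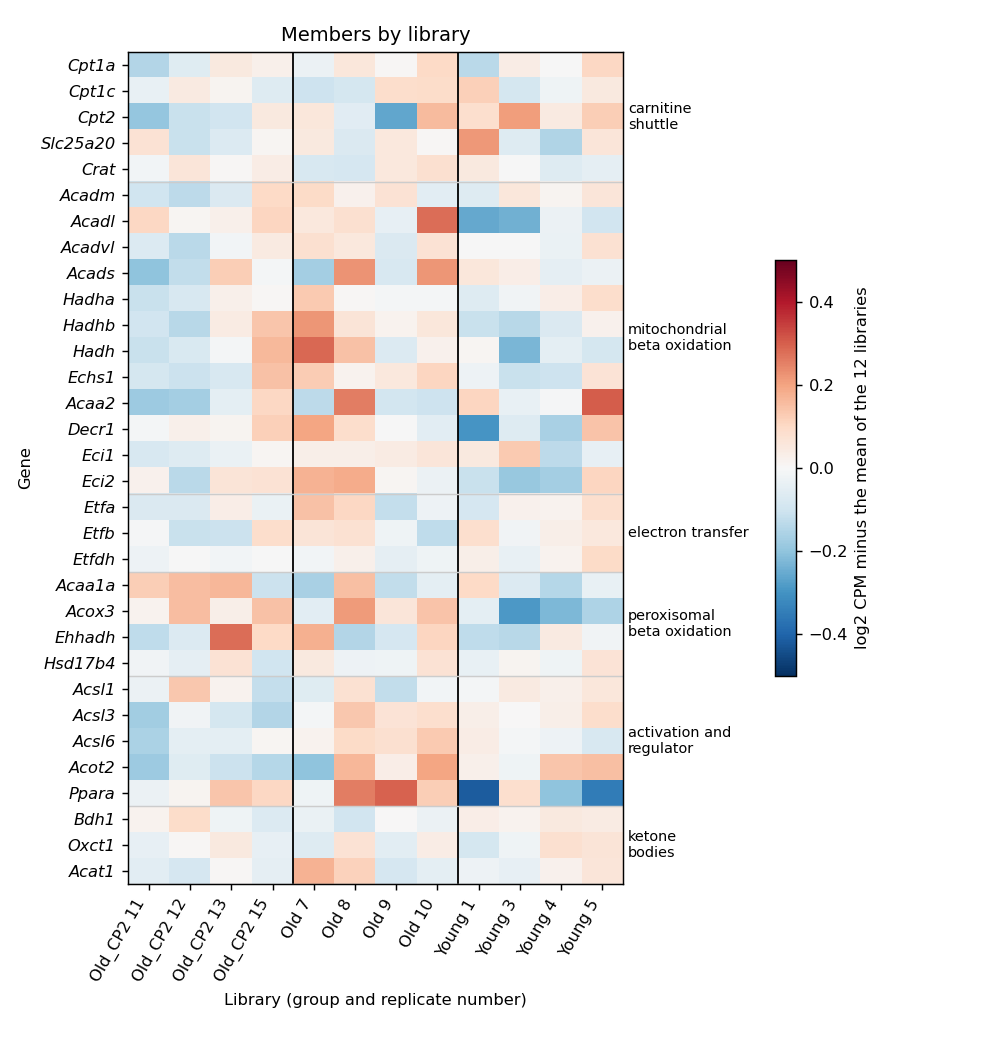
Colour shows log2 CPM of each gene (rows, by role) in each library (columns, by group) minus the mean of that gene over the 12 libraries; red is above the mean and blue below. Acsl3 and Acsl6 are paler or bluer in Old_CP2 than in Old, Acox3 and Acadl are bluer in Young, and no library is uniformly red or blue.

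Estimates for mitochondrial beta oxidation were slightly below 0 in Old_CP2 against Old. This held for all 12 genes, with a median log2 fold change of -0.08, and none passed the test. Hadhb had 54.1, 52.6, 59.6 and 63.7 CPM in Old_CP2, against 67.4, 60.5, 58.6 and 60.1 CPM in Old. Hadha had 63.5, 65.0, 69.9 and 68.9 CPM in Old_CP2, against 75.2, 68.9, 68.1 and 68.2 CPM in Old. In both genes the groups overlapped, and Old 7 was the highest of the 8 libraries. Acadm, the medium-chain acyl-CoA dehydrogenase, averaged 28.9 ± 2.1 CPM in Old_CP2, against 30.6 ± 1.37 CPM in Old, and Acadvl, the very-long-chain enzyme, averaged 43.2 ± 2.30 CPM in Old_CP2, against 45.5 ± 2.19 CPM in Old. Echs1, the short-chain hydratase, averaged 48.3 ± 4.17 CPM in Old_CP2, against 51.9 ± 1.77 CPM in Old, with its 4 treated libraries at 46.4, 45.7, 46.6 and 54.5 CPM. Summed over the 12 genes, the level was 387 ± 22.6 CPM in Old_CP2, against 409 ± 15.2 CPM in Old, with overlapping libraries.

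Estimates for the carnitine shuttle, the electron transfer genes and the ketone enzymes lay near 0, between -0.086 for Acat1 and 0.045 for Bdh1. The widest interval among them was that of Cpt2, from -0.27 to 0.13. Cpt1a had 26.9, 28.6, 30.8 and 30.3 CPM in Old_CP2, against 29.2, 31.0, 29.9 and 31.9 CPM in Old. The groups overlapped, and the interval of the log2 difference ran from -0.20 to 0.07. Oxct1 had 272, 281, 290 and 272 CPM in Old_CP2, against 267, 294, 270 and 287 CPM in Old, with an interval from -0.11 to 0.10. Etfdh, the ubiquinone oxidoreductase that takes electrons from electron transfer flavoprotein, averaged 27.0 ± 0.217 CPM in Old_CP2, against 26.9 ± 0.533 CPM in Old. Bdh1, the hydroxybutyrate dehydrogenase that opens ketone use, averaged 44.4 ± 2.2 CPM in Old_CP2, against 43.0 ± 1.17 CPM in Old, and Acat1 88.8 ± 2.27 CPM in Old_CP2, against 94.3 ± 8.18 CPM in Old.

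Intervals were wider for several of the other genes, though not for Hsd17b4 (-0.14 to 0.06). Acaa1a had 40.2, 41.1, 41.4 and 34.3 CPM in Old_CP2, against 33.1, 41.0, 33.9 and 35.7 CPM in Old. Old_CP2 15 and Old 8 each stood apart from the rest of their group, so that the ranges crossed, and the log2 fold change of 0.13 was the highest estimate of the 32, with adjusted p = 0.83. Hsd17b4, the multifunctional enzyme for branched and very long chains, averaged 52.8 ± 2.63 CPM in Old_CP2, against 54.3 ± 1.81 CPM in Old, and Ehhadh 3.66 ± 0.47 CPM in Old_CP2, against 3.57 ± 0.38 CPM in Old. Decr1, the dienoyl-CoA reductase for unsaturated chains, averaged 17.4 ± 0.687 CPM in Old_CP2, against 17.7 ± 1.35 CPM in Old, and Acads, the short-chain dehydrogenase, 6.87 ± 0.686 CPM in Old_CP2, against 7.40 ± 1.04 CPM in Old. Etfa and Etfb, the subunits of electron transfer flavoprotein, had log2 fold changes of -0.07 and -0.03, and the other shuttle genes, Cpt1c, Cpt2, Slc25a20 and Crat, lay between -0.07 and 0.03.

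The 32 intervals also bound what treatment could have done at this precision. The intervals lay between a fall of -0.38 (-22.9%), the lower end for Acot2, a mitochondrial acyl-CoA thioesterase, and a rise of 0.30 (23.3%), the upper end for Acaa1a, a peroxisomal thiolase. For 28 of the 32 genes the whole interval was within 0.3 of 0. The median width on either side of the estimate was 0.13 for the 32 genes and 0.24 over all tested genes. Near-identical copies, Acot1 and Acaa1b, make the counts of Acot2 and Acaa1a uncertain.

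**Figure D3:**
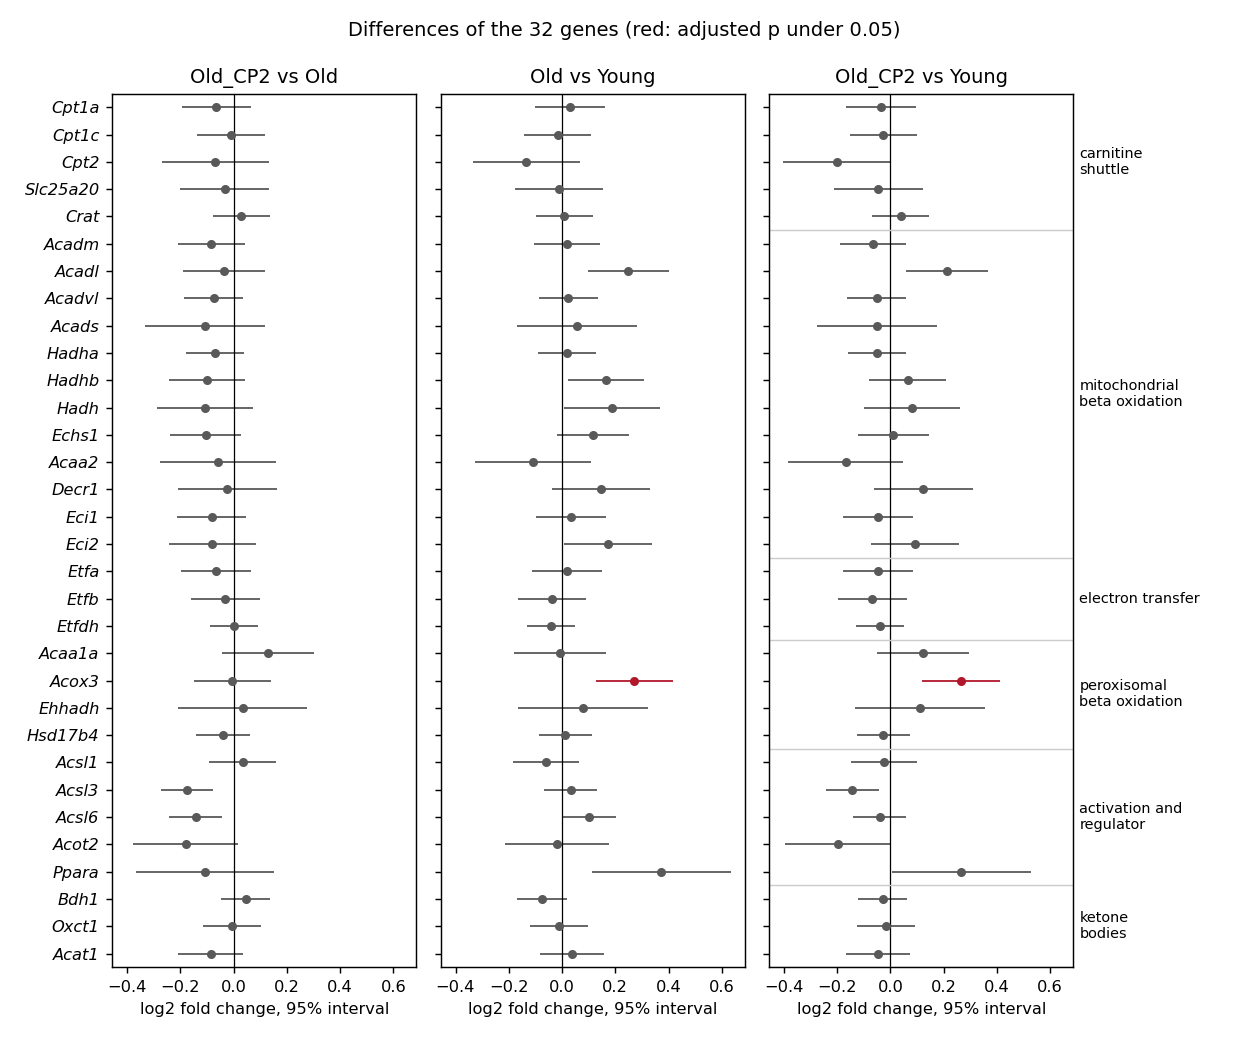
Log2 fold change of each of the 32 genes with a 95% interval derived from edgeR's F statistic, in Old_CP2 against Old, Old against Young and Old_CP2 against Young. Red marks an adjusted p under 0.05. In the first panel all estimates lie between -0.18 and 0.13 and none is red, and Acox3 is red in both comparisons with Young.

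Astrocyte markers differed in the same direction as 26 of the 32 estimates, those for Acsl3 and Acsl6 among them, and not as that for Acsl1. None of the 3 synthetases passed the test. The sum of 11 astrocyte markers was 5357 ± 258 CPM in Old_CP2 (5069 to 5635) and 6089 ± 214 CPM in Old (5793 to 6285), 12% lower in Old_CP2 and without overlap. Of the 11, 0 passed the adjusted test and none was at 0 reads. At an unadjusted p under 0.05, 8 were lower, against 6.31% of all genes in either direction. The sum of the 32 genes was 1657 ± 36.8 CPM in Old_CP2 (1605 to 1687) and 1734 ± 37.1 CPM in Old (1693 to 1774), and its difference came largely from the activation group, at 473 ± 18.2 CPM in Old_CP2, against 521 ± 18.6 CPM in Old. In bulk tissue, fewer cells of a type and less RNA per cell cannot be told apart. Markers of pericytes and smooth muscle summed 40.2% higher in Old_CP2 (148 ± 23.9 CPM) than in Old (106 ± 8.82 CPM). Of these 7 markers, 0 were called and 5 were higher at an unadjusted p under 0.05, against the same 6.31%. Oligodendrocyte markers summed 8.29% lower in Old_CP2 than in Old, with 0 of 8 at an unadjusted p under 0.05. Neuron markers summed 7.04% higher, with 1 of 9 at that threshold, and libraries overlapped in both sums. Red blood cell markers summed 216% higher in Old_CP2 than in Old, without overlap. Of these 5 markers, 2 were called, both higher, against 0.0443% of all genes. At an unadjusted p under 0.05, 5 were higher, against the same 6.31%. The part of these cell types, astrocytes and red blood cells among them, in the differences was not tested.

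The second comparison, Old against Young, was larger across the transcriptome, with 1511 genes called (6.7%). Of the 32, 1 was called, and it was higher, a count that 32 genes cannot set apart from that share. At an unadjusted p under 0.05, 7 were higher and 0 lower (21.9%), much the same share as the 21.4% of all genes in either direction. Libraries did not overlap for 1 gene, Bdh1, against 13.3% of all genes. The median log2 fold change of the 32 was 0.02, and 11 of them (34.4%) were below 0 against 50.9% of all genes.

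Acox3, the peroxisomal oxidase that acts on branched-chain acyl-CoA, was the gene that passed. It had 33.6, 40.4, 36.4 and 38.5 CPM in Old, against 33.7, 28.6, 29.8 and 31.4 CPM in Young. Old 7 lay level with Young 1, and the other Old libraries were above all Young ones. The log2 fold change was 0.27 ± 0.07 (SE, 95% interval 0.13 to 0.42), with adjusted p = 0.0314 by edgeR. The adjusted p ran from 0.00408 to 0.0744 over the alternatives, and was above 0.05 without Young 3 (0.0707), Young 4 (0.0744), Young 5 (0.0541), Old 8 (0.067) or Old 10 (0.0596), and with the choroid plexus score as a covariate (0.0622), where its log2 fold change was 0.31. A GC box like those in the Acox3 window shown above was found for 22 of the 27 genes with promoter sequence.

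**Figure D4:**
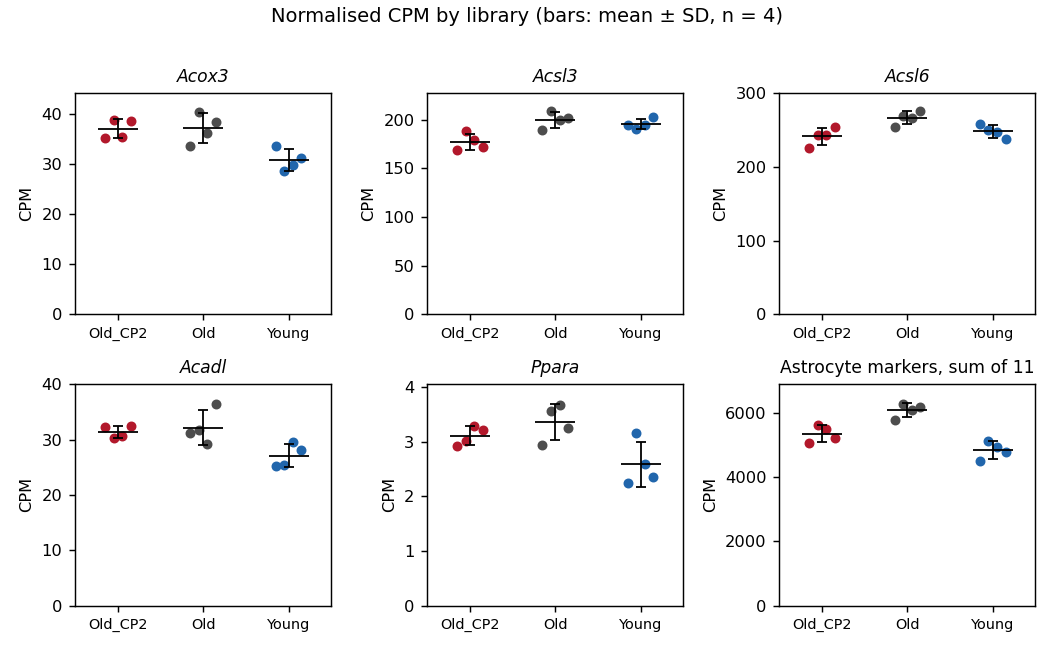
Normalised CPM in each library (points), with mean ± SD of 4 libraries (bars), for Acox3, Acsl3, Acsl6, Acadl, Ppara and the sum of 11 astrocyte markers, in Old_CP2, Old and Young. Acox3 and Acadl stand at the same level in Old_CP2 and Old and lower in Young. The means of Acsl3 and Acsl6 are highest in Old, but their Old and Young libraries overlap. The astrocyte sum is 5357 CPM in Old_CP2, 6089 CPM in Old, against 4846 CPM in Young.

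Several mitochondrial enzymes had higher estimates in Old without passing the test. Acadl, the long-chain acyl-CoA dehydrogenase, had 31.2, 31.8, 29.2 and 36.5 CPM in Old, against 25.2, 25.5, 29.5 and 28.1 CPM in Young. A single pair crossed, Old 9 below Young 4, and the log2 fold change was 0.25 ± 0.07 with adjusted p = 0.0538. Acadl passed with DESeq2 (0.0161), without Young 4 (0.0445) and without Old 9 (0.0377). Hadhb had 67.4, 60.5, 58.6 and 60.1 CPM in Old, against 53.5, 52.6, 55.0 and 58.8 CPM in Young, with a log2 fold change of 0.17 and adjusted p = 0.163, while its partner Hadha differed by 0.02. Hadh, the short-chain hydroxyacyl-CoA dehydrogenase, and Eci2, a peroxisomal and mitochondrial isomerase, had log2 fold changes of 0.19 and 0.17, each with adjusted p = 0.21. Of the 12 mitochondrial genes, 11 were above 0, with a median of 0.09. Acaa2, the thiolase that ends the cycle on medium chains, was the exception at -0.11.

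Ppara was low in every library. It had 2.94, 3.56, 3.66 and 3.25 CPM in Old, against 2.24, 3.16, 2.59 and 2.34 CPM in Young. Young 3 reached into the Old range and the other Young libraries lay below it. The log2 fold change was 0.37 ± 0.12, the largest estimate among the 32 in this comparison, with adjusted p = 0.0855, and its interval from 0.11 to 0.63 was also the one that reached highest. Ppara passed with DESeq2 (adjusted p = 0.0446) and without Young 3 (adjusted p = 0.03).

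Ketone enzymes did not differ detectably between Old and Young. Oxct1 averaged 280 ± 13.3 CPM in Old, against 282 ± 15.2 CPM in Young (log2 fold change -0.01, interval -0.12 to 0.10), and Acat1 94.3 ± 8.18 CPM in Old, against 91.8 ± 3.03 CPM in Young. Bdh1 had 43.2, 41.4, 44.2 and 43.3 CPM in Old, against 45.3, 44.8, 45.7 and 45.5 CPM in Young. Every Old library was below every Young one, by a small margin, with a log2 fold change of -0.08 and adjusted p = 0.355. Bdh1 shares 13.7% of its exon bases with another annotated gene and Oxct1 12.6%, mainly on the opposite strand, and without strand information their reads cannot be separated. Acadvl shares 42.9%, mainly with a gene on the opposite strand, and Etfb shares 58.2%, mainly with a gene on its own strand, so that its counts are uncertain as well.

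In the carnitine shuttle, the estimate for Cpt2 was the lowest of the 32 and those of the other genes lay near 0. Cpt1a averaged 30.5 ± 1.20 CPM in Old, against 29.8 ± 2.05 CPM in Young, Cpt1c 78.1 ± 5.81 CPM in Old, against 79.0 ± 4.88 CPM in Young, and Slc25a20, the carnitine-acylcarnitine carrier, 15.5 ± 0.614 CPM in Old, against 15.6 ± 1.74 CPM in Young. Cpt2, which returns the acyl group to CoA inside the mitochondrion, averaged 7.57 ± 0.917 CPM in Old, against 8.31 ± 0.403 CPM in Young, a log2 fold change of -0.13, and its interval allowed a fall of up to -0.33 (-20.7%). Crat, the short-chain carnitine acetyltransferase, averaged 40.3 ± 2.45 CPM in Old, against 40.1 ± 1.39 CPM in Young. None of the 5 passed the test.

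Cell type and region markers differed strongly in the same comparison. The astrocyte sum was 25.7% higher in Old (6089 ± 214 CPM) than in Young (4846 ± 271 CPM). Of its 11 markers 7 were called, all higher, against 6.7% of all genes called in either direction. In the same comparison Acsl3 had a log2 fold change of 0.03 (adjusted p = 0.757 by edgeR) and Acsl6 of 0.10 (0.227). Microglial markers summed 19% higher in Old, with 1 of 6 called. Midbrain and hindbrain markers summed to 15.7 to 81.3 CPM in Old, against 1.85 to 2.77 CPM in Young, and 6 of 6 were called. Hypothalamic markers summed to 1.45 to 18.0 CPM in Old, against 38.1 to 222 CPM in Young, and ependymal markers were 40.4% lower in Old. With the choroid plexus score as a covariate, 389 genes and 0 of the 32 were called, and the median of the 32 became 0.06. Every Young library scored above every Old one, so that the covariate is partly mixed with the comparison. Without the 4 libraries lowest in choroid plexus markers, 514 genes and 1 of the 32, Acox3 (adjusted p = 0.0389), were called. The part of tissue composition in the differences between Old and Young was not tested.

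The third comparison sets Old_CP2 against Young, and it shares its libraries with the other comparisons. It called 1707 genes (7.57%) and again 1 of the 32, Acox3. Acox3 had 35.3, 38.9, 35.5 and 38.6 CPM in Old_CP2, each above every Young library, with a log2 fold change of 0.27 ± 0.07 and adjusted p = 0.0312. Its log2 fold change between Old_CP2 and Old was -0.01 (interval -0.15 to 0.14). The call in Old_CP2 against Young ended without Young 3, Young 4, Young 5, Old_CP2 11, Old_CP2 12 or Old_CP2 15, with the covariate (0.0747, log2 fold change 0.32) and without the 4 libraries lowest in choroid plexus markers (0.0736).

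At an unadjusted p under 0.05, 3 of the 32 were higher and 3 lower in Old_CP2 than in Young, against 23.2% of all genes in either direction. Libraries lay wholly higher for Acadl and Acox3 and wholly lower for Acsl3 and Acot2, against 15.5% of all genes. Acadl had 32.3, 30.3, 30.6 and 32.4 CPM in Old_CP2, with a log2 fold change of 0.21 and adjusted p = 0.0894. Acsl3 had 194, 191, 194 and 202 CPM in Young, all above the highest Old_CP2 library, with a log2 fold change of -0.14 and adjusted p = 0.0774. DESeq2 called both, with adjusted p-values of 0.0475 for Acadl and 0.0276 for Acsl3. Acot2 averaged 6.73 ± 0.239 CPM in Old_CP2, 7.62 ± 0.925 CPM in Old, against 7.72 ± 0.447 CPM in Young, with a log2 fold change of -0.20 against Young and adjusted p = 0.212. Cpt2 had the lowest estimate of the 32, averaging 7.22 ± 0.515 CPM in Old_CP2, against 8.31 ± 0.403 CPM in Young, a log2 fold change of -0.20 with adjusted p = 0.212. Ppara averaged 3.11 ± 0.168 CPM in Old_CP2, against 2.58 ± 0.414 CPM in Young, a log2 fold change of 0.26 with adjusted p = 0.209, and its ranges overlapped. Acsl6, at -0.04, had adjusted p = 0.655.

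The spread between libraries was small, which narrows the intervals of single genes. The median coefficient of variation of the 32 genes was 5.25% in Old_CP2, 6.35% in Old and 5.16% in Young. The steadiest genes were Etfdh in Old_CP2 (0.805%), Eci1 in Old (1.06%) and Bdh1 in Young (0.895%), and the most variable were Ehhadh in Old_CP2 (12.9%), Acads in Old (14.0%) and Ppara in Young (16.0%).

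The wider pathway was read from 4 further lists of genes outside the 32. In Old_CP2 against Old, 0 of 30 further oxidation genes, 0 of 24 genes of activation, uptake and thioester hydrolysis, 0 of 11 tested ketone genes and 0 of 23 tested PPAR regulators and targets were called. Acsbg1, an acyl-CoA synthetase of astrocytes, came nearest, with 142, 148, 143 and 169 CPM in Old_CP2, against 193, 180, 180 and 182 CPM in Old. All Old_CP2 libraries were lower, and the log2 fold change was -0.29 ± 0.05 with adjusted p = 0.107. Slc16a1, the monocarboxylate carrier that brings ketone bodies and lactate across membranes, had 41.9, 46.4, 41.7 and 53.0 CPM in Old_CP2, against 57.1, 57.9, 54.3 and 54.1 CPM in Old, with a log2 fold change of -0.29 and adjusted p = 0.474. Both were lower together with the astrocyte and oligodendrocyte marker sums given above, while endothelial markers summed 5.28% higher in Old_CP2 than in Old. The part of these cell types in both differences was not tested. Ucp2, a mitochondrial carrier of the uncoupling protein family, was the gene of these lists with an unadjusted p under 0.05 and a higher estimate, at 26.9 ± 3.27 CPM in Old_CP2, against 18.1 ± 3.15 CPM in Old (log2 fold change 0.57, adjusted p = 0.212).

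Between Old and Young, calls in the further lists went both ways. In Old against Young, 2 rose and 1 fell of the 30 oxidation genes, 2 rose and 1 fell of the 24 activation and uptake genes, 2 rose and 0 fell of the 11 ketone genes, and 2 rose and 0 fell of the 23 PPAR genes, against the 6.7% of all genes given above. Slc27a2, a very-long-chain acyl-CoA synthetase and fatty acid transporter, had 8.79, 9.44, 8.93 and 9.84 CPM in Old, against 6.60, 7.18, 5.58 and 6.44 CPM in Young (log2 fold change 0.52 ± 0.08, adjusted p = 0.00416). Rxra, the partner receptor of PPAR, averaged 44.5 ± 1.53 CPM in Old, against 35.5 ± 2.37 CPM in Young (0.33, adjusted p = 0.0038). Hcar2, the receptor for hydroxybutyrate on immune cells, had 96 reads over the Old libraries and 14 over the Young ones (2.74, adjusted p = 0.0116). These 3 calls held under every alternative that was run.

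The other calls of Old against Young did not hold under every alternative, and each ended with the choroid plexus covariate. That score was 10.2 or more (log2) in every Young library and 9.91 or less in every old one. The covariate is thus partly mixed with the comparison itself. Leaving out the 4 lowest libraries keeps only Old 8, Old 10, Old_CP2 12 and Old_CP2 13 of the old groups. A call lost under either setting can therefore reflect lower precision alone. The fold changes with the covariate were about as large for most of these calls, and the adjusted p-values larger. Acsbg1 rose by 0.26 on the log2 scale (adjusted p = 0.0129), and with the covariate the value was 0.24 (0.0779). Slc16a1 rose by 0.34 (0.0317), against 0.33 with the covariate (0.127). Acadsb, a dehydrogenase of branched short chains, rose by 0.20 (0.0256), against 0.24 with it (0.0521), and Crot, the peroxisomal carnitine octanoyltransferase, by 0.24 (0.0401), against 0.25 (0.125). Ppargc1a, the coactivator of mitochondrial genes, rose by 0.19 (0.0474), against 0.17 (0.21). Fabp7, the fatty acid binding protein of radial glia and astrocytes, averaged 25.0 ± 5.16 CPM in Old, against 40.6 ± 5.57 CPM in Young, a log2 fold change of -0.70 (0.0156) that was also -0.70 with the covariate (0.0722). Acox2, the peroxisomal oxidase of bile acid intermediates, was counted with 59 reads over Old and 159 over Young, a log2 fold change of -1.39 (0.0139), against -1.20 with the covariate (0.0906). Without the 4 libraries lowest in choroid plexus markers, adjusted p was 0.169 for Acox2 (log2 fold change -1.03), 0.0677 for Fabp7, 0.0892 for Slc16a1, 0.0985 for Acadsb, 0.203 for Crot and 0.119 for Ppargc1a. Crot also ended with the 8 compared libraries alone (0.058) and Ppargc1a with no filter on low counts (0.0579). Leaving out 1 library also ended the calls of Crot (Young 1, Young 3, Young 4, Old 7, Old 8, Old 9 or Old_CP2 13), Acadsb (Young 1, Young 4, Old 7 or Old 8), Slc16a1 (Young 3, Young 4, Old 7, Old 8 or Old 9) and Fabp7 (Old 9). Ppargc1a was lost without Young 3, Young 4, Young 5, any Old library, Old_CP2 12 or Old_CP2 13.

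**Figure D5:**
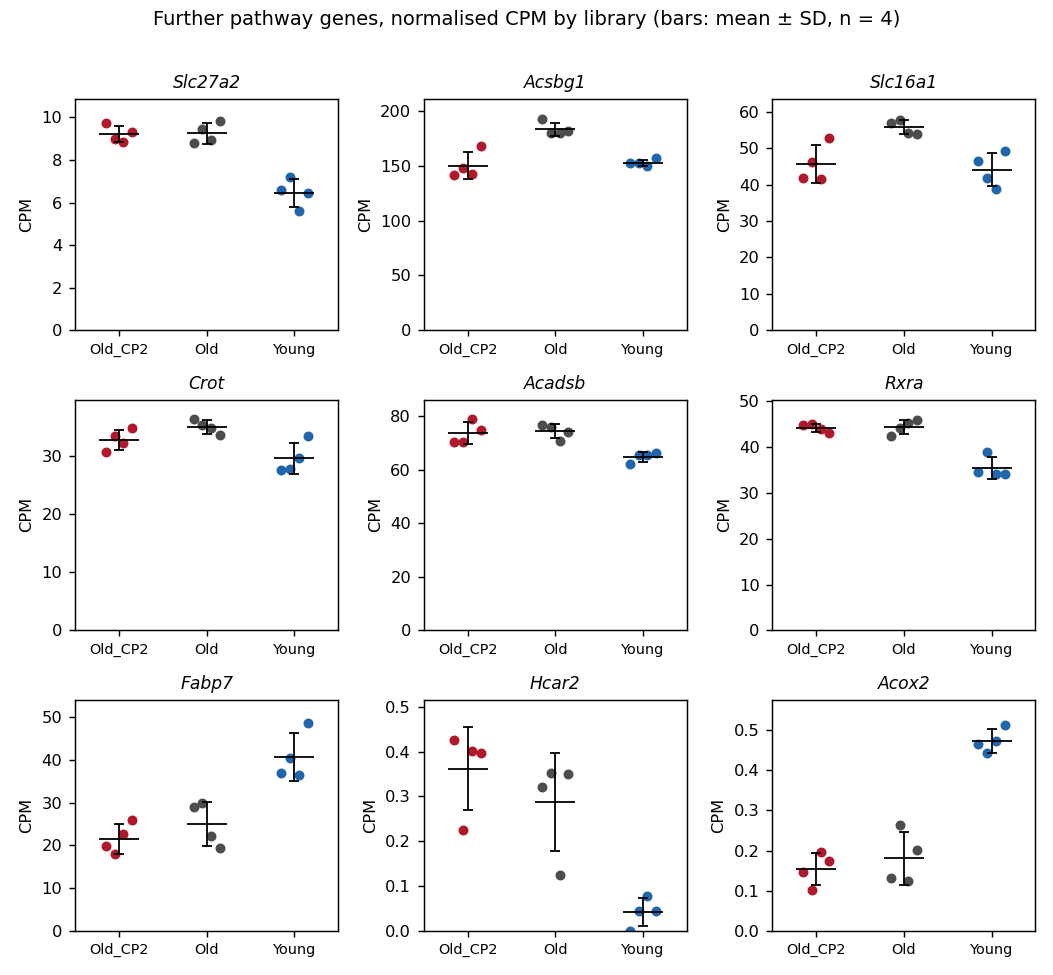
Normalised CPM in each library (points), with mean ± SD of 4 libraries (bars), of 9 further genes of the pathway in Old_CP2, Old and Young. Slc27a2, Acadsb and Rxra stand higher in both old groups than in Young, Fabp7 and Acox2 lower, and Acsbg1 and Slc16a1 are highest in Old, with Old_CP2 near Young.

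In Old_CP2 against Young, 1 rose and 1 fell of the 30 further oxidation genes (Acadsb and Acox2). Of the 24 activation genes 1 rose and 2 fell (Slc27a2, then Fabp7 and Acot1), and of the 11 tested ketone genes 1 rose (Hcar2). Of the 23 tested PPAR genes 3 rose and 1 fell (Ppargc1a, Rxra and Klf15, then Ucp3). Over all genes, 7.57% were called in either direction. Slc27a2 averaged 9.23 ± 0.393 CPM in Old_CP2, against 6.45 ± 0.661 CPM in Young, with adjusted p = 0.00337. Acsbg1 averaged 150 ± 12.5 CPM in Old_CP2, against 153 ± 2.93 CPM in Young (adjusted p = 0.817), and Slc16a1 45.7 ± 5.30 CPM in Old_CP2, against 44.2 ± 4.63 CPM in Young (adjusted p = 0.783). Klf15, a transcription factor of fasting metabolism, averaged 26.6 ± 2.39 CPM in Old_CP2, against 21.8 ± 1.41 CPM in Young (adjusted p = 0.0358), and Ucp3, an uncoupling protein family carrier linked to fatty acid use in muscle, averaged 2.62 ± 0.423 CPM in Old_CP2, against 3.66 ± 0.392 CPM in Young (adjusted p = 0.0443). Acot1, the cytosolic near-copy of Acot2, averaged 8.62 ± 1.12 CPM in Old_CP2, against 11.3 ± 1.17 CPM in Young (adjusted p = 0.0292). Of the 10 calls, those of Slc27a2, Rxra, Hcar2 and Fabp7 held under every alternative that was run. The others ended with the choroid plexus covariate, whose limits are given above. Their log2 fold changes without and with the covariate were 0.19 and 0.23 for Acadsb, -1.62 and -1.36 for Acox2, -0.40 and -0.35 for Acot1, 0.22 and 0.20 for Ppargc1a, 0.29 and 0.28 for Klf15, and -0.49 and -0.46 for Ucp3. Without the 4 libraries lowest in choroid plexus markers the calls of Acadsb (0.0836), Acot1 (0.15), Ppargc1a (0.0963) and Ucp3 (0.107) ended too. The 8 compared libraries alone ended those of Acot1 (0.0549) and Ucp3 (0.0657), and no filter on low counts that of Ucp3 (0.0593). Leaving out 1 library also ended the calls of Acadsb (Young 1, Young 3, Young 4 or Old_CP2 13), Acot1 (Young 3, Young 5, Old_CP2 11 or Old_CP2 12), Klf15 (Young 3, Young 4, Young 5, Old_CP2 12, Old_CP2 13 or Old_CP2 15), Ppargc1a (Young 4 or Old_CP2 11) and Ucp3 (any Young library, Old 9, Old 10, Old_CP2 11, Old_CP2 12 or Old_CP2 13).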

How the data were processed

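RNA-seq libraries were made with a kit that does not mark strand, per the labels' protocols, and the submitters' processing notes name bcl2fastq, TopHat, featureCounts from Subread and the build mm10. Their versions are not given in the sources used here. For each gene and library, raw counts and RPKM values were deposited by the authors. RPKM was used to compare levels between genes, and counts were used for every test. Here edgeR 4.0.16 in R 4.3.3 was fitted to all 12 libraries with group as the single factor (TMM scaling, filterByExpr, quasi-likelihood test), with Benjamini-Hochberg adjustment over 22553 tested genes and a threshold of 0.05. CPM values are TMM-normalised. The fit was tested on simulated data. DESeq2 1.42.0 and limma 3.58.1 (voom) were alternatives, besides RLE scaling, no low-count filter, the 8 libraries of a comparison alone, a choroid plexus score as covariate, leaving out the 4 libraries lowest in it, and leaving out each library.

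All 32 genes are reported. Of the further and marker lists, called genes and up to 4 genes by smallest p per list and comparison were eligible to be named. The genes and lists were chosen with earlier results of these data known. Some further genes of the pathway are not reported here. Promoter motifs were searched on both strands. Overlaps between genes come from GENCODE exons.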

Additional observations from a re-analysis of the deposited data

Results flagged for a closer look

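In 5 of 117 sets of 4 libraries examined, 1 library lay far from the other 3 relative to the range of its group, by Dixon's test. Chance flags about 5% of such sets. Hadha was 75.2 CPM in Old 7 against 68.1 to 68.9 CPM in the other Old libraries. Echs1 was 54.5 CPM in Old_CP2 15 against 45.7 to 46.6 CPM in the other Old_CP2 libraries. Acaa1a was 34.3 CPM in the same library, Old_CP2 15, against 40.2 to 41.4 CPM. Acaa2 was 27.0 CPM in Old 8 against 20.7 to 21.3 CPM in the rest of Old. The summed level of the 5 activation, thioesterase and regulator genes was 506.6 CPM in Young 1 against 496 to 497 CPM in the other Young libraries.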

How the results depend on the processing

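Every fold change named for the 32 genes as called kept its direction under the alternatives run. The covariate for choroid plexus called 389 genes in Old against Young and 408 in Old_CP2 against Young, and 0 of the 32 in each, with medians of the 32 at 0.0618 and -0.00424. As the score was higher in every Young library than in any old one, fewer calls can reflect lower precision alone. Leaving out the 4 libraries lowest in choroid plexus markers called 21 genes in Old_CP2 against Old, 514 in Old against Young and 709 in Old_CP2 against Young, 0 of the 32 in the last, with medians of 0.0489 in Old against Young and 0.0039 in Old_CP2 against Young. DESeq2 called 108, 2479 and 2647 genes and 1, 3 and 3 of the 32 in the same order, and leaving out the low-count filter called 17 genes in Old_CP2 against Old.

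Without any 1 library, Old_CP2 against Old called 6 (without Old 9) to 38 genes (without Old_CP2 15), and the median of the 32 lay between -0.0831 and -0.039 (without Old_CP2 12). Old against Young called 855 (without Young 4) to 1706 genes and 0 to 2 of the 32, with medians from 0.0268 to 0.0508 (without Young 5), and Old_CP2 against Young called 827 (without Old_CP2 11) to 1930 genes and 0 to 1 of the 32. The cause of these shifts was not tested. No paired analysis was possible because the groups share no replicate numbers. Hcar2 and Acox2 rest on few reads, with 14 for Hcar2 over the Young libraries and 59 for Acox2 over the Old ones.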
